A study of Mus musculus with 12 samples.

Results

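Transcript levels of the immediate-early response genes Ier2, Ier5, Ier5l and Ier3 and of the cysteine-serine-rich nuclear protein genes Csrnp1, Csrnp2 and Csrnp3 were examined in auditory cortex from acute mouse brain slices. These 7 genes were taken by symbol from the 20989 loci of the files, and each had 1 locus. Slices came from 6 C57bl6/J mice at 4 weeks of age, and every slice was divided at the midline. One hemisphere was held for 1 h in control artificial cerebrospinal fluid (aCSF), and the other for 1 h in cocktail aCSF, which carried bicuculline methiodide, DL-norepinephrine, carbamoylcholine, dopamine, serotonin and ascorbic acid. Bicuculline blocks inhibitory GABA-A receptors and carbamoylcholine activates acetylcholine receptors, so the cocktail combines disinhibition with neuromodulators. All hemispheres, controls included, had passed through slicing, recovery in dissection buffer and a rest in aCSF, so the control group is incubated slice tissue and not intact cortex. The methods of the study add a further hour in aCSF after the incubation, which is absent from the sample labels. The dissected cortex gave poly-A RNA that was sequenced as strand-specific single reads of 50 bases, with all libraries in 1 lane, giving 6 control and 6 cocktail libraries paired by mouse.

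Immediate-early genes are transcribed within minutes of a stimulus and need no newly made protein for it, because the factors that switch them on, among them serum response factor (SRF) and CREB, are already present in the cell. In cortex many of them follow neuronal activity. The IER proteins named here are not all of the same origin. IER2, IER5 and IER5L share a conserved amino-terminal domain and act in part through protein phosphatase 2A (PP2A), and IER5 is known to bring PP2A to the heat shock factor HSF1, which it activates. IER3, also called IEX-1, is an unrelated short protein that is induced by stress and modulates ERK signalling and cell survival. The CSRNP proteins are nuclear DNA-binding factors, of which the first, CSRNP1 or AXUD1, was found as a gene induced by AXIN1, a scaffold of the complex that destroys beta-catenin.

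Ier5 and Ier5l are shown by the start of their coding sequences, because they are close relatives that are compared below. The first 150 coding bases of each are printed from GENCODE M21 transcripts on mm10, with capitals at the positions where the 2 sequences carry the same base. Ier5 is read from chr1:155099281-155099430 on the minus strand and Ier5l from chr2:30473862-30474011 on the minus strand.
Ier5: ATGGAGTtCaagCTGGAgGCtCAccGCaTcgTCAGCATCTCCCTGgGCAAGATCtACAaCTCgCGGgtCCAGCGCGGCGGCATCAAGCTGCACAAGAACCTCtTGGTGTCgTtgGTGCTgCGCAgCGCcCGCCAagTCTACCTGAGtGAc
Ier5l: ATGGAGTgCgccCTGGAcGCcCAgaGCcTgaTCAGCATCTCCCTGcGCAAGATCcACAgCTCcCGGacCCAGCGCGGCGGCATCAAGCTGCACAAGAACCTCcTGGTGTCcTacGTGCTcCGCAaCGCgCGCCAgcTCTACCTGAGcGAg
The bases were identical at 122 of the 150 positions (81.3%). The full coding sequences have 924 bases in Ier5 and 1218 bases in Ier5l, each in the single exon of its gene. Stretches of 50 bases, the read length, were taken from the longest annotated transcript of each gene, and none was shared between the 7 genes. None of those of Ier2, Ier5, Ier5l, Ier3 or Csrnp1 occurred in another gene of the annotation. Of Csrnp2, 11 of 4326 (0.254%) did, and of Csrnp3 76 of 10623 (0.715%). Shorter transcripts of the 7 genes, such as those of Csrnp1, gave no stretches to this search.

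Promoter bases are shown for Ier5 and Csrnp1, which were higher in the cocktail libraries, and for Ier5l, the relative of Ier5 that did not pass the test. They come from the RefSeq promoter table of GRCm38.p6, which is the mm10 assembly. In it 6 of the 7 genes were matched, with 10 windows in all, and Ier2 had no entry. Each window holds the 250 bases before a RefSeq start and 50 bases from the start on. Capitals mark motif matches on either strand: the CCAAT box (ATTGG on the other strand) and a TATA motif (TATAAA or TATATA) in the Ier genes, and the CRE half-site (TGACG, or CGTCA on the other strand) in Csrnp1. The Ier5 stretch is chr1:155099637-155099766 (minus strand, bases -130 to -1 from the start), the Ier5l stretch is chr2:30474220-30474359 (minus strand, bases -160 to -21), and the Csrnp1 stretch is chr9:119983780-119983909 (minus strand, bases -130 to -1 from the third of 4 RefSeq starts).
Ier5: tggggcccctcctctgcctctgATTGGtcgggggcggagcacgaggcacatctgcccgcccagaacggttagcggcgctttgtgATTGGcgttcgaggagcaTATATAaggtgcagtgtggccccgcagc
Ier5l: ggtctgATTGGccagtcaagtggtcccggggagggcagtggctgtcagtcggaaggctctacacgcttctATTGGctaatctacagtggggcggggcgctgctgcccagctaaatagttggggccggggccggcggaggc
Csrnp1: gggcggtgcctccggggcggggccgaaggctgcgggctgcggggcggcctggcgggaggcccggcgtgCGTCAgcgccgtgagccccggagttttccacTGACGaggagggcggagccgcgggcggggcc
CCAAT boxes began at bases -108 and -46 of Ier5 and at bases -154 and -90 of Ier5l. A TATA motif began at base -28 of Ier5, and none was found in the window of Ier5l. CRE half-sites began at bases -62 and -31 of Csrnp1, in the window of its 4 that held the most of them. Its windows 1, 2 and 4 held 1 each. The printed Csrnp1 stretch lies inside the locus of the files (chr9:119971166-119984658), downstream of its start. A CCAAT box was held by 37.4% of all 32544 promoter windows of the same length, a TATA motif by 16.8% and a CRE half-site by 20.9%, so each is common. Neither the full CRE (TGACGTCA, in 1.8% of all windows) nor a CArG box, the SRF motif (in 1.64%), was found in any of the 10 windows. Both are rare, so their absence from 10 windows does not set these genes apart. Sequence outside the windows was not searched. The promoter of Ier2 was not searched. A full CRE holds a half-site on each strand, so these searches overlap. The search also found 2 AP-1 sites (TGACTCA, in 5.19% of all windows) in window 4 of Csrnp1. A heat shock element (GAANNTTC, in 7.89%) was found in the windows of Ier5l and Csrnp2, and GC boxes (GGGCGG, in 35.9%) in several windows. The Csrnp2 window had 299 bases in annotated exons of the gene, and 1 base upstream of its start lay outside them. The search thus covered almost no sequence of Csrnp2 outside its exons. These matches describe the letters of the windows, and binding was not measured.

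All 7 genes passed the filter of a mean of at least 1 FPKM (fragments per kilobase of transcript, scaled to the mapped fragments of the library) over the 12 libraries. Ier2, Ier5 and Csrnp1 were higher in cocktail than in control libraries, at 1.93, 1.35 and 1.44 times the control mean. Ier5l, Ier3, Csrnp2 and Csrnp3 did not pass the test. The call of 3 of 7 genes as higher stands beside 1.22% of the 12032 loci tested, and the call of 0 of 7 as lower beside 0.274% (1.5% for both directions together). The groups did not overlap for the same 3 genes, against 0.715% of loci not overlapping with cocktail higher and 0.199% with cocktail lower. At an unadjusted p under 0.05, 5 of the 7 genes passed, with Ier3 lower and Csrnp2 higher beside the genes called, and so did 968 of all loci tested (8.05%). The median log2 fold change was 0.21 over the 7 genes and 0.0076 over all loci tested. Here and below, a log2 fold change is the mean difference of log2(FPKM + 1) between cocktail and control in the same mouse, fitted with limma, and adjusted p-values are Benjamini-Hochberg values over all loci tested, called under 0.05. Adding 1 shrinks the fold change of genes with few FPKM. In bulk tissue, fewer cells of a type and less RNA per cell cannot be told apart.

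**Figure D1:**
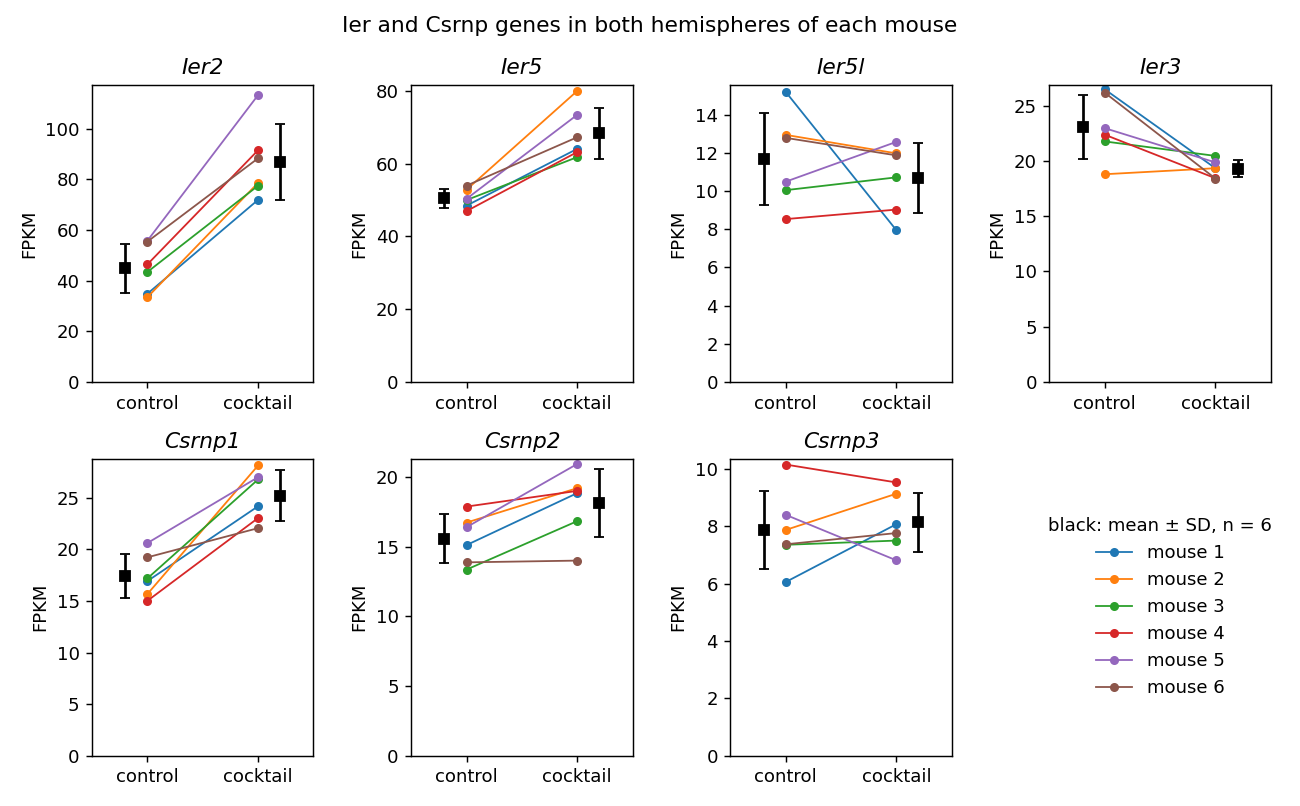
FPKM of each of the 7 genes in the 12 libraries, with a line joining the control and cocktail hemispheres of a mouse and a separate FPKM axis starting at 0 for each gene, and the group mean ± SD (n = 6) in black. The lines of Ier2, Ier5 and Csrnp1 rise in all 6 mice and their groups do not overlap, while the groups of the other genes overlap.

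Ier2, whose product is a small nuclear protein induced by growth factors and by neuronal activity, changed most among these genes. It is a gene of 1 exon at chr8:84661331-84662852 on the minus strand. Its level in the control libraries was 33.5 FPKM at the lowest, 44.9 at the median and 55.8 at the highest, and in the cocktail libraries 71.9, 83.5 and 113. Every cocktail library thus lay above every control library. The means were 44.9 ± 9.66 FPKM (SD, n = 6) in control and 86.9 ± 14.8 FPKM (SD, n = 6) in cocktail. The log2 fold change was 0.95 (SE 0.063, limma adjusted p = 1.2e-05), with a 95% interval of 0.81 to 1.09. Ier2 ranked 9 of 12032 loci by log2 fold change and 6 by adjusted p. The within-mouse differences were 1.02, 1.21, 0.82, 0.96, 1.01 and 0.66 in mice 1 to 6, so each mouse moved the same way, and the exact test that flips the signs of these differences (two-sided) gave p = 0.03125, the smallest that 6 mice allow. Each Ier2 value rested on 929 to 2872 reads.

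Ier5, the relative of Ier2 that takes PP2A to HSF1, rose by less. It lies in 1 exon at chr1:155096367-155099636 on the minus strand. Control libraries spanned 47.0 to 54.0 FPKM with a median of 50.2, and cocktail libraries 61.8 to 80.0 with a median of 65.7. The groups did not overlap, and the highest cocktail library was that of mouse 2. The means were 50.5 ± 2.62 FPKM in control and 68.3 ± 7.08 FPKM in cocktail (SD, n = 6 each). The log2 fold change was 0.43 (SE 0.050, limma adjusted p = 0.000601, 95% interval 0.32 to 0.53). The differences by mouse were 0.40, 0.59, 0.30, 0.42, 0.54 and 0.31 (higher in 6 of 6, exact sign-flip p = 0.03125). Ier5 ranked 84 of 12032 by log2 fold change. The control libraries varied little around their mean, with a coefficient of variation of 5.20% against 21.5% for Ier2.

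Ier5l, the third gene of the Ier2 and Ier5 group, gave no call in either direction. It is a gene of 1 exon, listed in the files at chr2:30472641-30474199 on the minus strand. The control libraries held 8.53 FPKM at the lowest, 11.6 at the median and 15.2 at the highest, and the cocktail libraries 7.95, 11.3 and 12.6. The groups overlapped through most of their range. The log2 fold change was -0.11 (SE 0.11, limma adjusted p = 0.885), and its 95% interval of -0.36 to 0.14 lies wholly below that of Ier5. The within-mouse differences were -0.86 in mouse 1, which held both the highest control and the lowest cocktail value, and from -0.10 to 0.24 in the other mice. Without mouse 1 the log2 fold change was 0.04, so the sign rested on that mouse. Ier5l had 114 to 322 reads per library, the lowest range of the 7 genes. The file's model of Ier5l has 1559 bases, against 2683 in GENCODE M21, so its FPKM describes the shorter model.

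Ier3, the stress-induced survival gene of separate origin, had lower values with cocktail in most mice but was not called. It has 2 exons at chr17:35821713-35822911 on the plus strand. Control libraries ranged from 18.8 to 26.5 FPKM with a median of 22.7, and cocktail libraries from 18.4 to 20.5 with a median of 19.3. The cocktail values lay close together near the bottom of the control range, and the groups overlapped. The means were 23.1 ± 2.89 and 19.3 ± 0.801 FPKM (SD, n = 6 each). The log2 fold change was -0.24 (SE 0.068, 95% interval -0.39 to -0.09), with an adjusted p of 0.177 in limma and an unadjusted p of 0.00454. Differences by mouse were -0.43, 0.04, -0.09, -0.27, -0.20 and -0.49 (lower in 5 of 6, exact sign-flip p = 0.0625). The interval therefore leaves out a rise of Ier3 of the size seen in Ier2, Ier5 or Csrnp1.

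Csrnp1, the AXIN1-induced founder of its family, rose in all mice. Its locus is chr9:119971166-119984658 on the minus strand, with 3 to 5 exons in 5 annotated transcripts. Its control libraries held 15.0 FPKM at the lowest, 17.1 at the median and 20.6 at the highest, and its cocktail libraries 22.1, 25.5 and 28.1. Every cocktail library again lay above every control library. The means were 17.4 ± 2.13 and 25.2 ± 2.45 FPKM (SD, n = 6 each), and the log2 fold change was 0.51 (SE 0.071, limma adjusted p = 0.00217, 95% interval 0.35 to 0.66). Csrnp1 ranked 60 of 12032 by log2 fold change. The differences ran from 0.19 in mouse 6 to 0.80 in mouse 2 and were above 0 in 6 of 6 mice (exact sign-flip p = 0.03125). Exons of Csrnp1 share 224 bases with 1700019L13Rik, a transcript on the opposite strand. The reads are strand specific, but the strand setting of the FPKM estimate is not given in the sources used here. Cx3cr1, a microglial chemokine receptor gene on the same strand, overlaps the Csrnp1 locus with 0 shared exonic bases and was not called (log2 fold change -0.20).

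Csrnp2, a relative of Csrnp1 with 5 exons at chr15:100479570-100495239 on the minus strand, shifted by a smaller amount that did not pass. Control libraries spanned 13.4 to 17.9 FPKM with a median of 15.8, and cocktail libraries 14.0 to 21.0 with a median of 18.9. The groups overlapped, because the cocktail hemispheres of mice 3 and 6 stayed within the control range. The log2 fold change was 0.21 (SE 0.056, 95% interval 0.08 to 0.33), with a limma adjusted p of 0.144 and an unadjusted p of 0.00331. All 6 mice had a higher value in cocktail, by 0.01 in mouse 6 and up to 0.33 in mouse 5 (exact sign-flip p = 0.03125), a property shared with 3.64% of the loci tested. Ier2, Ier5 and Csrnp1 also had it, which makes 4 of the 7 genes, while 0 of 7 were lower in all 6 mice, beside 2.66% of loci.

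Csrnp3, the third family member, had the lowest level of the 7 genes. It lies at chr2:65845767-66031546 on the plus strand, with 8 transcripts in GENCODE M21. Control libraries ranged from 6.05 to 10.1 FPKM with a median of 7.62, and cocktail libraries from 6.81 to 9.52 with a median of 7.91. The groups covered nearly the same range, and the log2 fold change was 0.05 (SE 0.075, limma adjusted p = 0.922, 95% interval -0.11 to 0.21). Cufflinks marked 4 of its 12 values as failed, in control mouse 3 and in cocktail mice 1, 3 and 4. With the 3 mice whose values all had the status OK, the log2 fold change was -0.0029 (limma adjusted p = 0.999). Csrnp3 shares 89 exonic bases with Gm13619 on the opposite strand.

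**Figure D2:**
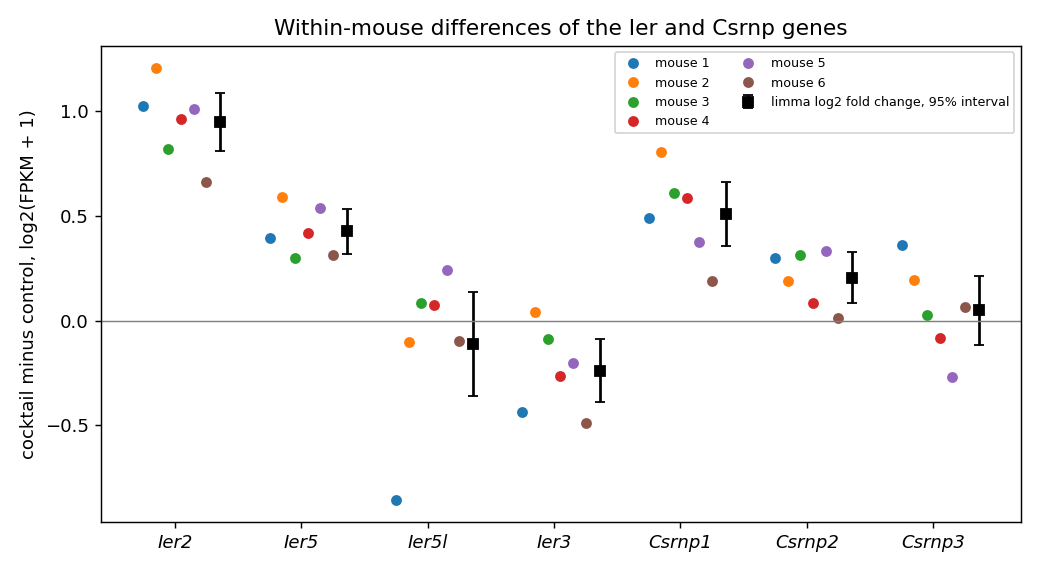
Within-mouse difference in log2(FPKM + 1), cocktail minus control, for each of the 7 genes, with 1 point per mouse, the fitted log2 fold change and its 95% interval. The intervals of Ier2, Ier5 and Csrnp1 lie furthest above 0, that of Ier3 lies below 0, and those of Ier5l and Csrnp3 include 0.

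Relatives were then compared with each other within the same mice, in 6 pairs with an exact two-sided sign-flip test and adjustment over the 6. The Ier2 difference exceeded that of Ier5 by 0.52 ± 0.10 (SD, n = 6 mice) on the log2 scale. It exceeded that of Ier5l by 1.06 ± 0.46, and Ier5 exceeded Ier5l by 0.54 ± 0.39. The order Ier2, Ier5, Ier5l therefore held in each of the 6 mice. In the Csrnp family, Csrnp1 exceeded Csrnp2 by 0.30 ± 0.22 and Csrnp3 by 0.46 ± 0.26, again in 6 of 6 mice. Each of these 5 pairs had p = 0.03125 in the exact test and an adjusted p of 0.0375. Csrnp2 exceeded Csrnp3 by 0.16 ± 0.26, above 0 in 3 of 6 mice (exact p = 0.25, adjusted p = 0.25), with a 95% interval of -0.11 to 0.43, so a difference of either sign remained possible at this spread. Ier2 and Ier5 were thus called beside an uncalled Ier5l, and Csrnp1 beside uncalled Csrnp2 and Csrnp3. Both comparisons with Csrnp3 include its 4 failed values, and only 3 of the 6 mice had the status OK in both hemispheres.

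The order of the levels, in FPKM and so per length of transcript, was not the same in the 2 conditions. In control libraries the order of the means was Ier5, Ier2, Ier3, Csrnp1, Csrnp2, Ier5l and Csrnp3. Ier5 and Ier2 overlapped there, with Ier5 higher in 4 of 6 mice, and Csrnp1 and Csrnp2 overlapped too, also with 4 of 6. In cocktail libraries the order was Ier2, Ier5, Csrnp1, Ier3, Csrnp2, Ier5l and Csrnp3, with Ier2 above Ier5 in 5 of 6 mice. Ier3 stood above Csrnp1 in all 6 control hemispheres, with overlapping ranges, and below it in all 6 cocktail hemispheres, with separate ranges. Among neighbours in the order, the ranges were separate for Ier2 and Ier3 in control, and for Ier5 and Csrnp1, Csrnp1 and Ier3, and Csrnp2 and Ier5l in cocktail. All other neighbours overlapped.

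The size of the difference varied between mice in a partly shared way. Mouse 2 had the largest difference in Ier2, Ier5 and Csrnp1, and in Ier3 the only one above 0. Mouse 6 had the smallest difference in Ier2, Csrnp1 and Csrnp2, and in Ier3 the most negative one. In mouse 6 the cocktail level was 1.59 times the control level for Ier2, 1.25 times for Ier5, 1.15 times for Csrnp1 and 1.01 times for Csrnp2. In mouse 2 these ratios were 2.35, 1.51, 1.79 and 1.15. Control mouse 6 was the library with the fewest reads recovered from the Cufflinks intervals, 10600193, and its part in these values was not tested. Recovered reads otherwise reached 19768184 in control and ranged from 13539422 to 17506709 in cocktail. These totals cover only values with the status OK and are not the numbers of reads sequenced.

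**Figure D3:**
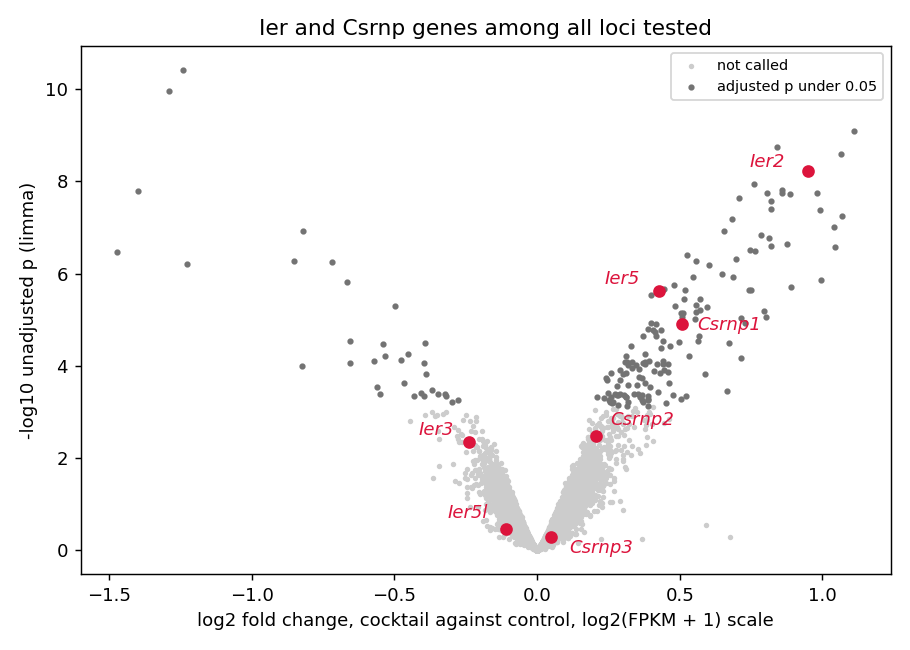
Each of the 12032 loci tested by its log2 fold change (horizontal axis) and the -log10 of its unadjusted limma p (vertical axis), with dark points for loci called at an adjusted p under 0.05 and the 7 genes in red. Ier2 sits at 0.95 among the loci furthest up and to the right, Csrnp1 at 0.51 and Ier5 at 0.43 lie among the called loci, and the other 4 genes lie among those not called.

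Genes whose 6 within-mouse differences were closest to those of each called gene were found among 8521 genes with a mean of at least 5 FPKM, by the root mean square distance over the 6 mice. Nearest to Ier2 were Egr4, a zinc finger transcription factor (distance 0.112 on the log2 scale), Fos, a subunit of AP-1 (0.125), and Nr4a1, an orphan nuclear receptor (0.135). Their log2 fold changes were 0.98, 0.99 and 0.84, beside 0.95 for Ier2. Nearest to Ier5 were Mex3b, an RNA-binding protein gene (distance 0.0934), Jun, a partner of Fos (0.0977), and Plk3, a kinase gene (0.112). Nearest to Csrnp1 were Ppp1r15a (GADD34), a regulatory subunit of protein phosphatase 1 (distance 0.0831), Egr1 (0.120) and Sik1, a salt-inducible kinase gene (0.128). The log2 fold changes of these 6 genes lay between 0.41 for Plk3 and 0.56 for Sik1. All 9 of these genes were called higher, but they were picked for likeness to a called gene, so this is no separate result. The distance says only that 6 differences were alike in size.

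Of 30 other rapid immediate-early genes, listed for their known early induction, 28 were called higher, beside 1.22% of all loci tested. In this list 0 were called lower, beside 0.274% of all loci, and the median log2 fold change was 0.76. The largest values were those of Klf4, a Krüppel-like transcription factor (1.11), and Btg2, an antiproliferative gene (1.07). Klf2 (0.12, limma adjusted p = 0.856) and Per1, a clock gene (0.20, limma adjusted p = 0.167), were not called. Ier2 therefore lay above the median of these genes, and Ier5 and Csrnp1 lay below it. The list was drawn up with results of these libraries known.

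Lists of genes linked to the regulation or the known roles of the IER and CSRNP proteins gave calls only among the chaperone targets of HSF1. Of all loci tested 1.5% were called, so 0 calls in a short list does not set it apart. Of SRF and its cofactors 0 of 6 were called, with 2 at an unadjusted p under 0.05. Srf itself was at 24.5 ± 1.02 FPKM in control and 27.8 ± 1.24 in cocktail (SD, n = 6 each; log2 fold change 0.18, SE 0.049, limma adjusted p = 0.148). Elk4, a ternary complex partner of SRF, also had 0.18 (limma adjusted p = 0.371), and the median of the list was -0.06. Of 13 PP2A subunit genes 0 were called (median 0.02, largest 0.08 in Ppp2r2a), and of 3 catalytic PP1 genes 0 (median 0.07, largest 0.12 in Ppp1cc). Of 5 Axin and beta-catenin genes 0 were called as well (median 0.03, largest 0.10 in Apc). In these 3 lists no gene had an unadjusted p under 0.05 in limma. With voom, limma's method for counts, on reads recovered from the intervals, 0 genes were called in any of the 4 lists.

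Among HSF1 and 10 chaperone or co-chaperone genes that it is known to switch on, 4 of 11 were called higher, beside 1.22% of loci. Here 0 were called lower, beside 0.274% of all loci tested, and the median log2 fold change of the list was 0.19. Dnajb1, an Hsp40 co-chaperone, stood at 95.7 ± 22.4 FPKM in control and 160.5 ± 32.7 FPKM in cocktail (SD, n = 6 each), which the fit put at 0.75 on the log2 scale (SE 0.087, limma adjusted p = 0.000581). The small heat shock protein gene Hspb1 had 0.50 (limma adjusted p = 0.038), and the inducible Hsp70 genes Hspa1b and Hspa1a had 0.45 and 0.42 (limma adjusted p = 0.0428 and 0.0324). Hspa1a and Hspa1b are near-identical copies, and a read that matches both cannot be assigned to either, so both values are uncertain. Hsf1 was not called (-0.09, limma adjusted p = 0.788). Dnajb1 was called under all 16 alternative settings, Hspa1a under 9, Hspb1 under 6 and Hspa1b under 5, so of the 4 only the Dnajb1 call held throughout.

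**Figure D4:**
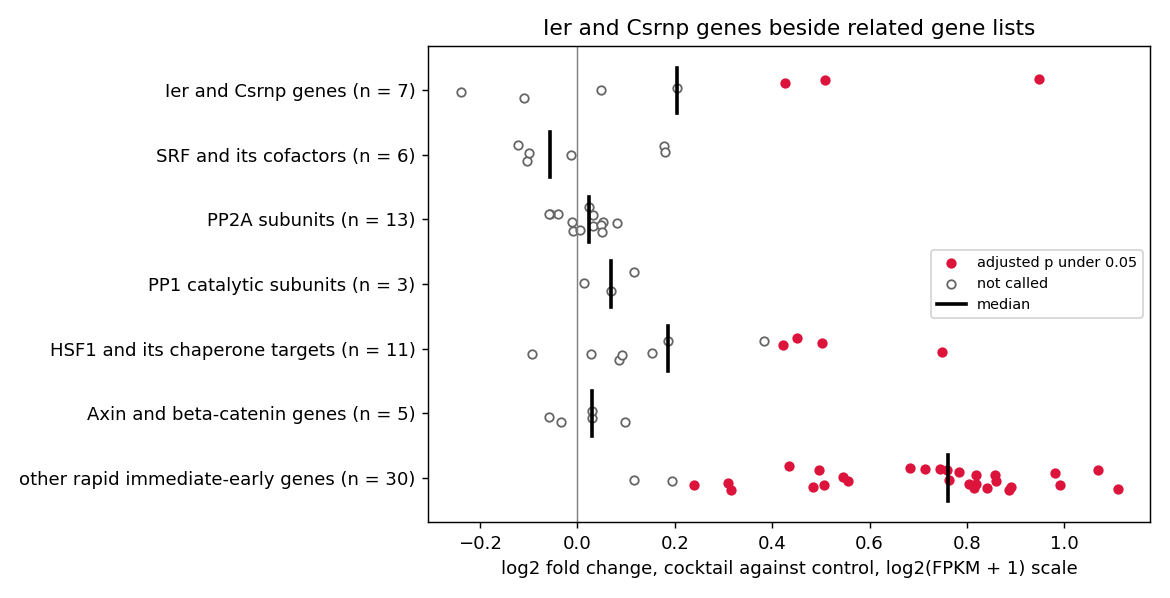
Log2 fold change, cocktail against control, of the 7 genes and of each gene in 6 lists, 1 row per list and 1 point per gene, with filled points for genes called at an adjusted p under 0.05. Of the listed genes, 28 of 30 other rapid immediate-early genes and 4 of 11 HSF1 and chaperone genes were called, and none in the other 4 lists. Of all loci tested, 1.5% were called.

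The tissue was checked with marker lists of the cell types a cortical dissection can hold. Excitatory and inhibitory neuron, astrocyte, microglial, oligodendrocyte, endothelial and mural cell markers were present. The summed level of the 8 excitatory markers was 2487 to 2847 FPKM in control and 2382 to 2817 in cocktail, and that of the 9 microglial markers 128 to 145 and 127 to 159. Choroid plexus markers summed to at most 1.83 FPKM and red blood cell markers to at most 2.80 FPKM in any library. The ranges of the 2 groups overlapped in every list. No marker was called in limma, with 3 genes at an unadjusted p under 0.05, 1 each in the astrocyte, endothelial and mural lists, and none was called with voom. The median log2 fold change of the 7 neural, glial and vascular lists ran from -0.0030 over the mural markers to 0.09 over the oligodendrocyte markers. It was 0.0076 over all loci tested. Values above 0 were held by 8 of 8 inhibitory, 7 of 8 oligodendrocyte, 7 of 8 astrocyte and 6 of 9 microglial markers. For excitatory and endothelial markers this was 4 of 8 each, and for mural markers 2 of 5.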

How the data were processed

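RNA from 6 control and 6 cocktail hemispheres of 6 mice was sequenced. According to their methods, the authors removed ribosomal reads with BWA 0.6.1, aligned the rest to mm10 with TopHat 1.4.1, with 1 placement allowed per read, and estimated FPKM per RefSeq gene with Cufflinks 1.3.0 with bias correction, over fragments on genes with a coding transcript. The deposited FPKM values were used as given. Bias correction and the gene model can shift levels between genes more than between libraries. A further deposited table with the authors' DESeq2 1.6.3 comparison of HTSeq 0.6.1p1 counts (mean count, log2 fold change, error, statistic, p-values) and group means and SDs of FPKM was not used.

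Reads per value were recovered from the Cufflinks interval where the status was OK (83.7% of 35887 values under 20 reads were whole to within 0.05). Library totals gave 10600193 to 19768184 reads, and they describe counting error only. Loci with a mean of at least 1 FPKM (12032) were put on the log2(FPKM + 1) scale and fitted in limma 3.58.1 (R 4.3.3) using mouse as a block, a variance trend and Benjamini-Hochberg adjustment at 0.05. The fit was tested on simulated data. Mouse numbers come from the labels, both hemispheres of a number being 1 animal, and their deviations from the group means correlated at 0.216 to 0.406 in the 6 pairs. Hemispheres of different mice were not compared in this way, so these values do not test the pairing. Exact sign-flip tests ran over mice. Figures used Python 3.11.15 and matplotlib 3.10.9.

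The genes, lists and tests were chosen with earlier results of these data known. Named genes are the 7 members, the 3 closest genes with a mean of at least 5 FPKM for each called member, and, from each list, the 2 called genes with the largest change or, where none was called, the 1 with the largest. Srf, Hsf1, Hspa1a, Hspa1b, Klf2 and Per1 fall outside this rule and were named after their values were seen. Alternatives were another pseudocount, filter, scaling or variance model, no mouse block, voom, leaving out each mouse and, added after seeing the data, a correction for GC content and length, leaving out loci with a failed status, and Csrnp3 from mice with OK status only.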

Additional observations from a re-analysis of the deposited data

Results flagged for a closer look

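The within-mouse log2 difference of Ier5l stood apart in mouse 1. Its value there was -0.86, against -0.10 to 0.24 in the other 5 mice, and the gap to the nearest mouse was 0.686 of the whole range, above the limit for 6 samples. The control hemisphere of mouse 1 held 15.2 FPKM and the cocktail hemisphere 7.95 FPKM. The control library of mouse 1 also had the most recovered reads (19768184) and the lowest summed FPKM (290155). The part of these in the value was not tested. Of 21 groups of values examined in the 7 genes this was the 1 that stood apart, and chance gives about 1.05.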

How the results depend on the processing

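Ier2, Ier5 and Csrnp1 were called higher under all 16 alternatives, with adjusted p-values of 8.59e-06 to 0.000955, 0.000458 to 0.00527 and 0.00087 to 0.0215. Ier3 (0.0681 to 0.466), Csrnp2 (0.0507 to 0.883), Ier5l and Csrnp3 were called under none. Without the replicate block the loci called went from 180 to 88, and no member's call changed (limma adjusted p = 0.00084 for Ier2, 0.00202 for Ier5 and 0.00271 for Csrnp1). Leaving out 1 mouse gave 104 to 181 calls, the lowest without mouse 4. It gave log2 fold changes of -0.18 to 0.04 for Ier5l and of -0.01 to 0.11 for Csrnp3, with the sign changed in both without mouse 1 (0.039 and -0.013). Csrnp3 also changed sign with OK status only (-0.0029). In the HSF1 and chaperone list the 4 calls became 1 without the block, 1 without the filter, 2 without the variance trend, 1 with voom, and 1 to 3 with 1 mouse left out. The cause was not tested. With a mean of at least 5 FPKM, 94.7% of calls were higher, against 81.7%. Paralog differences over 5 mice cannot reach a p under 0.0625, and voom gave no value for Csrnp3, which had failed values. Ier5l had 114 to 322 reads per library. Its SE was 0.11, and 0.058 without mouse 1, whose control library held the 322 reads. The part of depth was not tested.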
